A study of Sus scrofa with 36 samples.

Results

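The genes described here are those that encode the proteasome. Every row of the deposited table whose symbol begins with PSM, followed by a letter from A to G and a digit, was taken, which gave 24 of 12253 genes. The list that gives symbols to gene IDs holds 46 such symbols, and 22 of them had no row, so the proteasome is covered in part. They hold 3 genes of the 20S alpha ring, PSMA1, PSMA3 and PSMA5, and 2 of the 20S beta ring, PSMB1 and PSMB7. There were 5 ATPases of the 19S particle, PSMC1, PSMC2, PSMC3, PSMC5 and PSMC6. The other 8 subunits of the 19S particle were PSMD1, PSMD3, PSMD4, PSMD6, PSMD11, PSMD12, PSMD13 and PSMD14. Assembly chaperones were PSMD5 and PSMG3, and activators outside the 19S particle were PSME2, PSME3 and PSME4. PSMC3IP has a matching symbol, but it encodes a partner protein that acts in meiotic recombination and is not a subunit, so it is given apart. Of the subunits induced with the immunoproteasome, PSME2 was measured, whereas PSMB8, PSMB9, PSMB10 and PSME1 were not analysed here.

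The samples were subcutaneous adipose tissue of 36 pigs, the F2 generation of a cross of Duroc with Göttingen minipig, with 1 RNA-Seq library per pig. An aggregate Obesity Index placed 12 pigs in each of 3 groups that the labels call Low, Mean and High, here lean, intermediate and obese. The lean pigs were 7 males and 5 females, and each of the other groups had 6 of each sex, and no treatment was given in the labels. The study slaughtered the pigs at a similar weight, so age differs between the groups and cannot be told apart from obesity. Full sibs were present within groups, and neither sibs nor sequencing lanes are assigned to pigs in the labels.

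The proteasome is the main protease of the cytosol and nucleus. Its 20S core is a barrel of stacked alpha and beta rings with the catalytic sites of the beta subunits inside, and the 19S particle binds ubiquitinated proteins, removes the ubiquitin and threads the unfolded chain into the core with its ring of ATPases. Interferon induces other catalytic beta subunits and the PA28 activator, to which PSME2 belongs, and the resulting immunoproteasome supplies peptides for MHC class I. In adipocytes, proteasome capacity is known to be adjusted through the transcription factor NFE2L1.

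Between 8735839 and 11755925 reads per pig were recovered from the deposited log2 values. Levels are given as normalized read counts, which are reads divided by the size factor of the pig, and they are not compared between genes because they are not per length. Marker genes of adipocytes were present in every pig, with a summed level of PLIN1, LIPE, CIDEC and PNPLA2 between 26840 and 81473. Over all genes each pig had a median Spearman correlation of 0.931 to 0.966 with the others. The gene spans of PSMA3, PSMC1, PSMC5, PSMC3IP, PSMD1, PSMD6 and PSMD14 overlap that of another gene in the RefSeq gene table of a later pig assembly, and whether the counting used the strand is not given in the sources used here, so the reads of these genes are less certain. In tissue RNA, fewer cells of a type and less RNA per cell cannot be told apart.

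In 4 obese pigs, obese 1, 2, 3 and 6, of which 3 were females, PSME2 was above every lean and every intermediate pig. IRF1, an interferon-induced transcription factor, lay between 895 and 2157 in these 4 pigs and between 174 and 859 in the other 32. The summed level of the T and NK cell markers CD2, CD247, CD8A and NKG7 was 727 to 2374 in the 4 pigs against 543 to 1297 in the others. Obese 6 had the 727, which is below the median of 868 in the other 32 pigs, so this sum was not high in all 4. CD8A itself was 56.1 to 516 in the 4 pigs and 11.1 to 203 in the others. Since these pigs were noticed through their values, most results that include them are given with and without them. Values of the SD are given only with them. The pigs were chosen on high PSME2, so leaving them out also tends to lower genes that vary with PSME2.

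In obese against lean pigs, proteasome genes showed small differences that were mostly above 0, and none passed the test. Differences are on the deposited log2 scale and were tested with limma, in a model of group plus sex, and p-values were adjusted over all 12253 genes by the Benjamini-Hochberg (BH) method with a threshold of 0.05. Of the 24 genes 0 were called, against 0.0408% of all genes, and 0 had an unadjusted p under 0.05, against 14.7% of all genes. The difference was above 0 in 20 of the 24, against 47.5% of all genes, and the median was 0.10 against -0.01 over all genes. Leaving out obese 2 alone brought the median to 0.055. Among the 22 genes other than PSME2 and PSMC3IP, 18 were above 0, with a median of 0.08. Because the subunits vary together over pigs, these 24 genes are far from 24 separate observations.

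All 5 measured genes of the 20S core, which are not all of its genes, had differences above 0. They ran from 0.04 in PSMB7, which carries the trypsin-like site, to 0.16 in PSMA3. The ATPases ranged from -0.02 to 0.17, with 4 of 5 above 0, and the other 19S subunits from -0.03 to 0.15, with 6 of 8 above 0. The chaperone PSMD5 had the lowest value, -0.11. Among the 22 genes other than PSME2 and PSMC3IP, the 95% confidence intervals over both sexes reached at most from 0.802-fold to 1.34-fold. Larger changes in either direction lie outside all of these intervals. Within a sex, the intervals of the same genes reached from 0.584-fold to 1.75-fold in females and from 0.699-fold to 1.66-fold in males.

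PSMD11 (ENSSSCG00000017731), a scaffold subunit of the lid of the 19S particle, had the smallest unadjusted p. Its normalized read count was 656 to 894 in lean pigs with a median of 780, 654 to 928 in intermediate pigs with a median of 834, and 667 to 1193 in obese pigs with a median of 822. The groups overlapped, and 4 of 12 obese pigs were above the highest lean pig. The difference was 0.15 ± 0.078 (SE, n = 12 pigs per group, limma adjusted p = 0.366).

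PSMD12 (ENSSSCG00000017273), another lid subunit, ran from 921 to 1389 in lean pigs with a median of 1125 and from 1030 to 1499 in obese pigs with a median of 1265. In intermediate pigs the range was narrower, 1115 to 1376, with a median of 1295. Of the obese pigs 10 of 12 and of the intermediate pigs 11 of 12 were above the lean median, but the ranges overlapped. The difference of obese from lean pigs was 0.13 ± 0.068 (SE, limma adjusted p = 0.374).

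PSMA3 (ENSSSCG00000005072), a subunit of the alpha ring, which gates the entry to the core, was at 1264 to 2226 in lean pigs with a median of 1794. Intermediate pigs lay between 1476 and 1925 with a median of 1846, and obese pigs between 1628 and 2552 with a median of 1842. The medians were close, and 3 obese pigs were above the highest lean pig. The difference was 0.16 ± 0.084 (SE, limma adjusted p = 0.383).

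**Figure D1:**
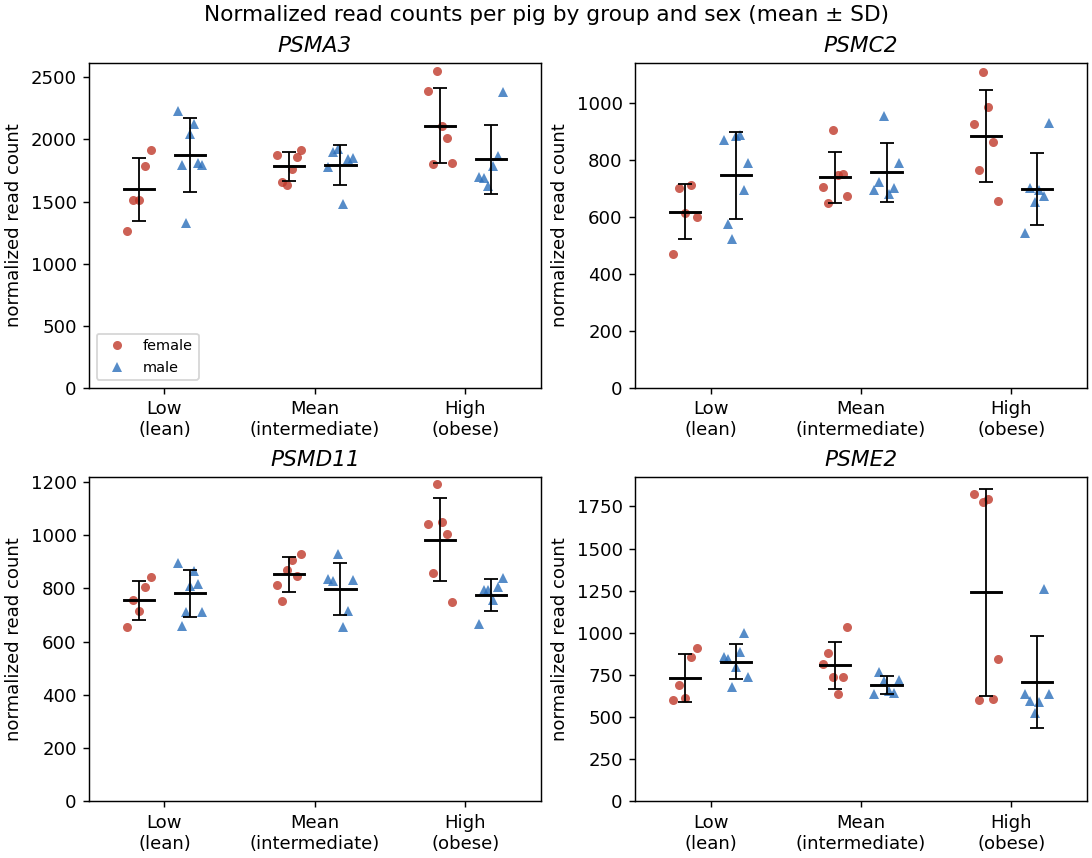
Normalized read counts (y axis) of PSMA3, PSMC2, PSMD11 and PSME2 in each of the 36 pigs by group and sex (x axis); circles are females, triangles males, and black bars give the mean ± SD of the pigs of that sex. The obese females lie highest in PSMA3, PSMC2 and PSMD11, and 4 obese pigs at 1258 to 1822 stand above all other pigs in PSME2.

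The count above 0 rested on the 4 obese pigs. Without them the difference was above 0 in 14 of 24 genes, against 42.2% of all genes, and the median was 0.01. PSMD11 then differed by 0.03, PSMD12 by 0.04 and PSMA3 by 0.04, and 0 of the 24 were called, as 0% of all genes were. PSME2 moved from 0.11 to -0.36 on the log2 scale, a value with no test because these pigs were chosen on PSME2.

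Intermediate pigs differed little from lean pigs. Of the 24 genes 0 were called, as 0% of all genes were, and 1 had an unadjusted p under 0.05, against 12.5% of all genes. The difference was above 0 in 19 genes, against 46.9% of all genes, with a median of 0.04, which was 0.01 without lean 12. That gene was PSMD12, with a difference of 0.14 ± 0.068 (SE, limma adjusted p = 0.399).

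PSMD14 (ENSSSCG00000015892), the deubiquitinase that removes ubiquitin chains at the 19S particle, varied widely in lean pigs, from 268 to 895 with a median of 454. Intermediate pigs ranged from 402 to 657 with a median of 511, and obese pigs from 347 to 845 with a median of 468. The intermediate range lay inside the lean range, and the difference of intermediate from lean pigs was 0.19 ± 0.14 (SE, limma adjusted p = 0.587). PSMD1, a large scaffold subunit of the base, lay between 239 and 621 in lean pigs with a median of 423 and between 365 and 519 in intermediate pigs with a median of 505, and its difference was 0.12 ± 0.11 (SE, limma adjusted p = 0.670), with 0.05 when lean 1 was left out.

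Between obese and intermediate pigs 0 of the 24 genes were called, as 0% of all genes were, and 0 had an unadjusted p under 0.05, against 4.28% of all genes. There, 15 differences were above 0, against 51.2% of all genes, but without the 4 obese pigs 4 were, against 42.4% of all genes, with a median of -0.07. A linear step over the 3 groups called 0 of 24, against 0.0245% of all genes, with 0 at an unadjusted p under 0.05, against 14.5%.

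PSME2 (ENSSSCG00000002004), the beta chain of the PA28 activator, was spread unevenly over the obese pigs. Its normalized read count was 599 to 996 in lean pigs with a median of 820, and 636 to 1036 in intermediate pigs with a median of 727. Obese pigs ranged from 525 to 1822 with a median of 636. Thus the obese group held both the lowest and the highest pigs, its median was below the lean median, and only 5 of 12 obese pigs were above that median. The mean difference was 0.11 ± 0.18 (SE, 95% confidence interval -0.26 to 0.47, limma adjusted p = 0.838) for obese and -0.11 ± 0.18 (SE, limma adjusted p = 0.835) for intermediate against lean pigs. With 1 pig left out, the first was lowest without obese 3, at 0.02, and the second ran from -0.16 without lean 3 to -0.06 without lean 7. The SD on the log2 scale was 0.754 in obese pigs, 0.232 in lean pigs and 0.208 in intermediate pigs.

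The difference of obese from lean pigs was looked at within each sex. In females, 23 of 24 genes had a higher mean in obese than in lean pigs, against 40% of all genes, and the median difference was 0.22 against -0.07 over all genes. In males 7 of 24 were above 0, against 54.7% of all genes, with a median of -0.05. With 1 pig left out the count above 0 ran from 3 to 12 and the median from -0.10 without obese 8 to -0.01 without lean 10. When the whole size factor was divided out, 4 of 24 were above 0 in males, against 50.3% of all genes, and 23 of 24 in females, against 49%. Among the 22 genes other than PSME2 and PSMC3IP, 21 in females and 7 in males were above 0 on the deposited scale. These contrasts within a sex were chosen after seeing the data. On the deposited scale 0 genes were called in females, against 0.0326% of all genes, and 11 had an unadjusted p under 0.05, against 15.8% of all genes. In males 0 were called, against 0.00816%, and 1 had an unadjusted p under 0.05, against 12.8%. Without the 4 obese pigs, which leaves 3 obese females, the female difference was above 0 in 13 of 24 genes, against 31.2% of all genes, with a median of 0.02, and 0 had an unadjusted p under 0.05, against 16.1%.

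The interaction term, which is the obese minus lean difference in males minus that in females, was below 0 in 23 of 24 genes, against 39.6% of all genes. Its median was -0.27, compared with 0.09 over all genes. No gene passed, with 0 of 24 called against 0.00816% of all genes and a lowest adjusted p of 0.207, and 5 had an unadjusted p under 0.05, against 12.9% of all genes. When the whole size factor was divided out, the median was -0.35 and 14 genes had an unadjusted p under 0.05, against 11.9% of all genes, with 0 called, as 0% of all genes were. Without the 4 obese pigs, the interaction was below 0 in 15 of 24 genes, against 30.7% of all genes, with a median of -0.05, and 1 gene had an unadjusted p under 0.05, against 13.6%.

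PSMC2 (ENSSSCG00000015424), an ATPase of the 19S ring, shows the pattern most plainly; it was picked after its values were seen. The 5 lean females had normalized read counts of 469, 599, 611, 699 and 709, and the 6 obese females 653, 763, 862, 926, 983 and 1107. Of the obese females 5 of 6 were above all lean females. Lean males ranged from 522 to 886 and obese males from 541 to 928, which overlapped almost wholly. The difference was 0.45 ± 0.15 (SE, limma adjusted p = 0.149) in females and -0.06 ± 0.14 (SE, limma adjusted p = 0.897) in males, and the interaction was -0.51 ± 0.20 (SE, limma adjusted p = 0.294). The female difference of PSMC2 was 0.16 and the interaction -0.22 without the 4 obese pigs.

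PSMA3 in females was 1264 to 1912 in lean and 1801 to 2552 in obese pigs, and 4 of 6 obese females were above all lean females. The female difference was 0.35 ± 0.12 (SE, limma adjusted p = 0.172), and the interaction was -0.34 ± 0.16 (SE, limma adjusted p = 0.372). PSMD11 was 656 to 841 in lean females and 750 to 1193 in obese females, with a female difference of 0.31 ± 0.11 (SE, limma adjusted p = 0.179). The female differences were 0.10 in PSMA3 and 0.06 in PSMD11 when the 4 obese pigs were left out. In males PSMA3 and PSMD11 differed by 0.00 and 0.02. In PSME2 the female difference of 0.55 ± 0.25 (SE, limma adjusted p = 0.293) came with 3 obese females at 1774 to 1822 and the other 3 at 599 to 843, while lean females were at 599 to 908. The 3 highest were among the 4 pigs that stood apart, and without these pigs the value was -0.24.

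PSME4 (ENSSSCG00000008412), which encodes the nuclear activator PA200, was the single gene with an interaction above 0, 0.79 ± 0.25 (SE, limma adjusted p = 0.207). It was 910 to 2196 in lean females and 898 to 1433 in obese females, but 942 to 1484 in lean males and 1232 to 2887 in obese males. The obese males thus lay mostly above the lean males and the obese females mostly below the lean females, with overlap in both sexes. The differences were -0.40 ± 0.18 (SE, limma adjusted p = 0.289) in females and 0.38 ± 0.17 (SE, limma adjusted p = 0.335) in males. The interaction of PSME4 was 0.79 without the 4 obese pigs and 0.62 to 0.97 with 1 pig left out, and its male difference was 0.22 without obese 4.

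PSMC3IP also had an interaction with an unadjusted p under 0.05, -1.07 ± 0.51 (SE, limma adjusted p = 0.374). Its level was low, 7.36 to 77.3 normalized reads per pig with a median of 10.9, where counting error alone gives an SD near 0.38 on the log2 scale.

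**Figure D2:**
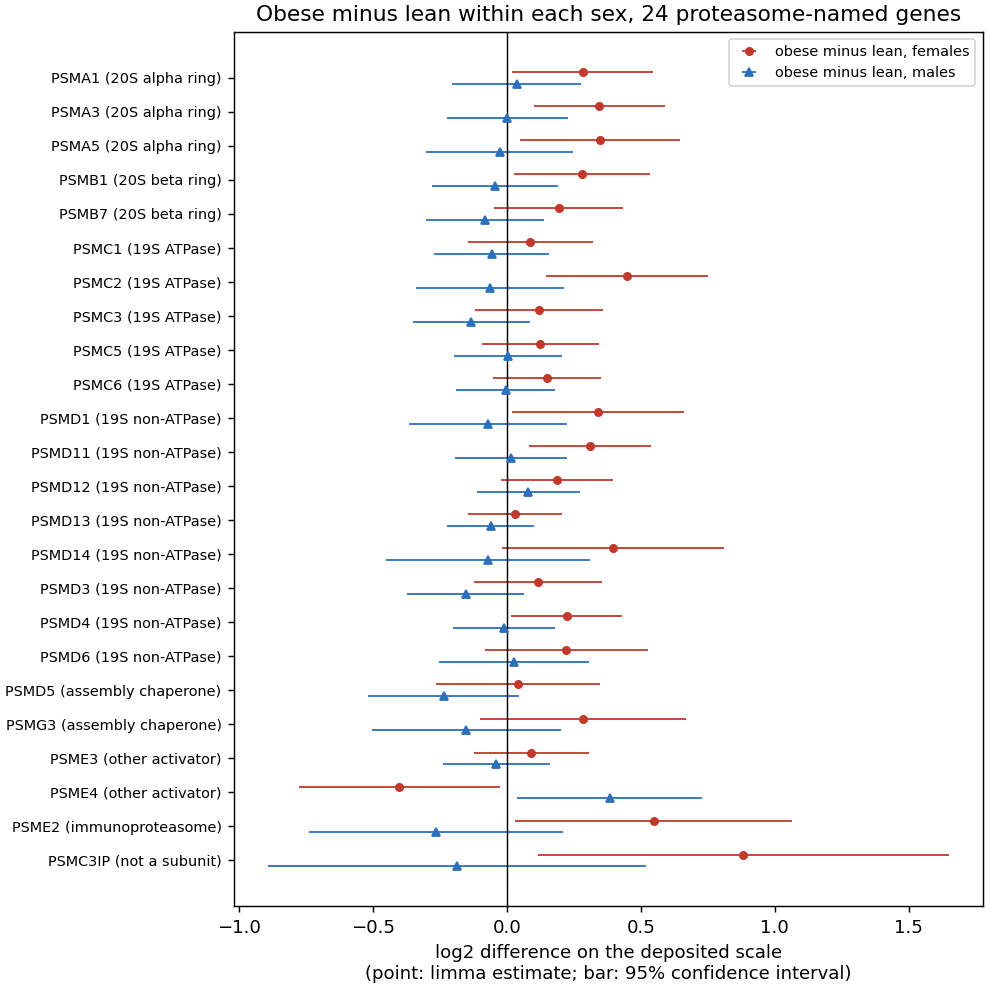
Difference between obese and lean pigs on the deposited log2 scale (x axis) for each of the 24 genes (y axis, with the role of the gene), in females (circles) and males (triangles); bars are 95% confidence intervals from limma. In females 23 of the 24 points lie above 0 and in males 7 do, and PSME4 has the opposite order.

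Over the 3 groups together, the sexes differed little in proteasome genes and no difference passed. The difference of males from females was above 0 in 10 of 24 genes, against 47.7% of all genes, with a median of -0.02, but without the 4 obese pigs in 20 of 24, against 51.4% of all genes, with a median of 0.04. Of the 24 genes 0 were called, although 2.19% of all genes were, and 1 had an unadjusted p under 0.05, against 18.3% of all genes. That gene was PSMD11, at 654 to 928 in males with a median of 804 and at 656 to 1193 in females with a median of 846. The ranges shared their lower part and the highest values were those of females, with a difference of -0.14 ± 0.064 (SE, n = 19 males and 17 females, limma adjusted p = 0.240), and of -0.06 without the 4 obese pigs.

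PSMD13, a lid subunit, was 743 to 1079 in males with a median of 931 and 778 to 967 in females with a median of 876, a difference of 0.09 ± 0.047 (SE, limma adjusted p = 0.323). PSMD14 was 302 to 895 in males and 268 to 657 in females, with medians of 494 and 463 and a difference of 0.20 ± 0.12 (SE, limma adjusted p = 0.370). PSME2 had medians of 711 in males and 813 in females and a difference of -0.26 ± 0.15 (SE, limma adjusted p = 0.345), and of -0.05 without the 4 obese pigs. The sexes overlapped in all of these genes.

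The SD between pigs was mostly below that of the median gene. After group and sex were taken out, the SD on the log2 scale had a median of 0.199 in the 22 genes other than PSME2 and PSMC3IP, compared with 0.328 over all genes, and 19 of the 22 were below the median gene. These 22 were also above the median gene in reads, from 51.2% to 95.8% of genes being lower, so the genes compared differ in level. PSMD13 was the steadiest at 0.126, lower than 99% of genes, followed by PSMC6 at 0.152. PSMD14 at 0.358, PSME4 at 0.350 and PSMG3 at 0.335 were above the median gene, and PSME2 had 0.458. Counting error alone would give 0.028 to 0.091 in the 22 genes.

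The intermediate pigs were the most alike. The SD was lowest in the intermediate group in 21 of 24 genes, against 40.6% of all genes, and in 18 of 24, against 37.7% of all genes, when the whole size factor was divided out. The mean of the scaled values of the 18 subunits of the 20S and 19S particles, a summary per pig in SD units, ran from -1.29 to 1.19 in lean pigs, from -0.50 to 0.47 in intermediate pigs and from -0.67 to 2.15 in obese pigs. Lean 1, 2, 3, 11 and 12 had the lowest values and obese 2 the highest, while the 8 obese pigs that did not stand apart ran from -0.67 to 1.04. With the whole size factor divided out the ranges were -1.63 to 1.25, -0.61 to 0.70 and -0.81 to 1.84.

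**Figure D3:**
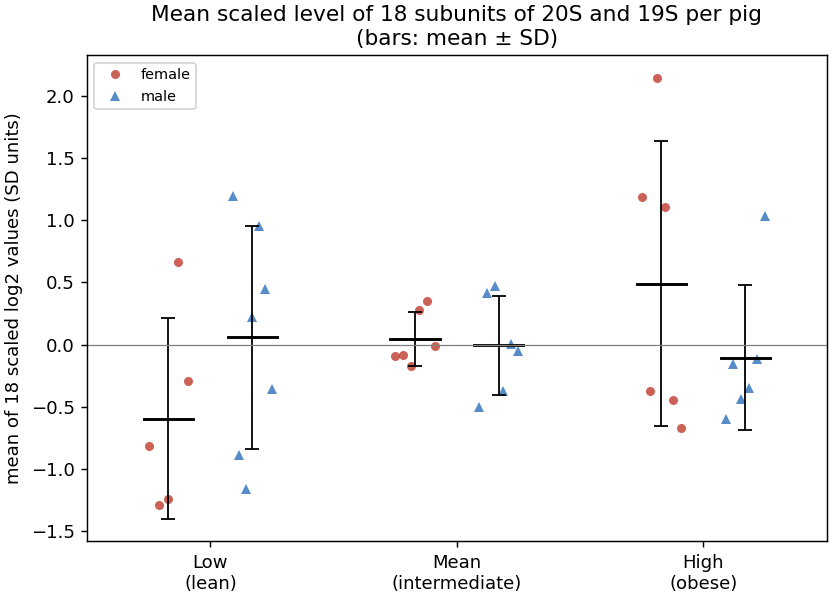
Mean of the scaled log2 values of 18 subunits of the 20S and 19S particles (y axis, SD units over the 36 pigs) by group and sex (x axis); circles are females, triangles males, and bars give the mean ± SD. The intermediate pigs lie within -0.50 to 0.47, whereas lean and obese pigs spread to -1.29 and 2.15.

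Subunits varied together from pig to pig. With group and sex taken out, the 153 pairs among the 18 subunits had a median correlation of 0.61 over the 36 pigs, 151 pairs were above 0 and 69.3% were above 0.5. Over all 75061878 gene pairs the median was 0.04 and 2.67% were above 0.5. These correlations are descriptions, since all genes share the same libraries. Without the 4 obese pigs the median over the subunit pairs was 0.52, against 0.04 over all pairs.

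Over the 36 pigs together the measured genes of the core had the highest correlations. Their 10 pairs had a median of 0.80, and PSMA1 with PSMA3 had the highest value of all, 0.92. The ATPases had a median of 0.70, the other 19S subunits 0.51, and pairs of a core with a 19S subunit 0.66. In the obese pigs alone the ATPases were higher than the core, at 0.88 against 0.81. PSMD1 (median 0.33 with the other 17), PSMD13 (0.38) and PSMC5 (0.47) followed the rest least. Within groups the median over subunit pairs was 0.66 for the lean, 0.24 for the intermediate and 0.76 for the obese pigs, while over all gene pairs it was 0.05, 0.03 and 0.07. In the 8 obese pigs that did not stand apart it was 0.57.

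The genes outside the core and the 19S particle differed in how far they followed the 18 subunits. PSMD5, a chaperone that holds ATPases during assembly of the base, had a median correlation of 0.49 with them, whereas PSMG3, a chaperone of the alpha ring, had 0.15. PSME3, the nuclear PA28 activator, had 0.28, and PSME4 had -0.07, while within the lean, the intermediate and the obese group it had 0.15, 0.31 and -0.39. PSME2 had 0.55, but 0.34 without the 4 obese pigs. Within the lean group, the intermediate group and the 8 other obese pigs PSME2 had 0.58, 0.12 and 0.07. By group in the order lean, intermediate and obese, PSMG3 had 0.02, -0.02 and 0.39, and PSME3 had 0.45, -0.08 and 0.23.

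**Figure D4:**
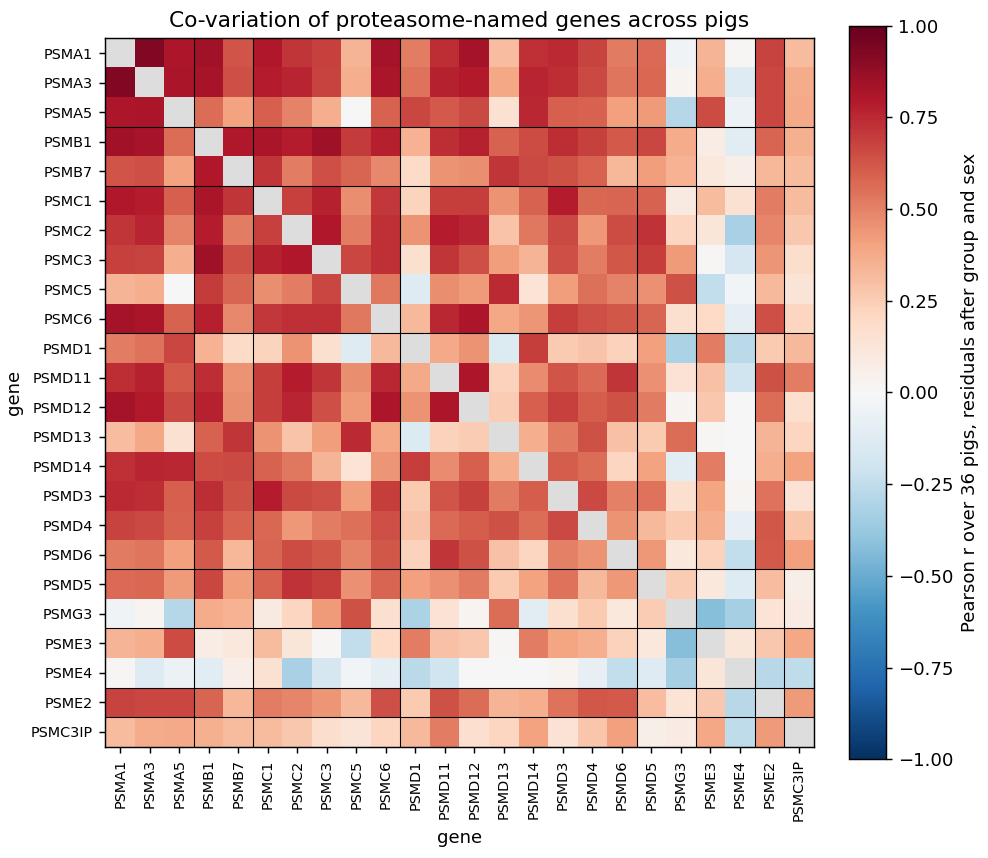
Pearson correlation over 36 pigs between each pair of the 24 genes after group and sex were taken out (colour, from -1 in blue to 1 in red; grey on the diagonal), with genes in the order of their roles and lines between roles. The block of 20S and 19S genes is mostly red, with a median of 0.61, and the row of PSME4 is pale with a median of -0.07.

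Among genes with a symbol, NSFL1C, a cofactor of the p97 segregase that feeds unfolded substrates to the proteasome, was the gene most like the mean of the 18 subunits, with r = 0.89 over 36 pigs. Its value was 0.92 without the 4 obese pigs. The next 4 rows, at 0.88 to 0.82, had no symbol, and TXNL1, a thioredoxin bound to the 19S particle, followed at 0.80. When the whole size factor was divided out, NSFL1C was again first, at 0.90. The next symbol was then GRHPR at 0.80, and TXNL1 was not among the first 10. NSFL1C itself ran from 860 to 1482 in the lean group, from 957 to 1373 in the intermediate and from 881 to 1339 in the obese group.

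Among the genes most like PSME2 were TAPBP (r = 0.89), which tethers MHC class I to the peptide transporter, and ETV7 (0.88), followed by a pair of rows without a symbol at 0.87. These values depend on the 4 obese pigs. Without them, TAPBP was at 0.54 and stood at place 97, ETV7 was at 0.62, and the symbol most like PSME2 was EIF2AK2, the interferon-induced RNA-dependent kinase, at 0.69.

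The relation of PSME2 to IRF1 and to PTPRC, which encodes the leukocyte antigen CD45, is described without a test, since 4 obese pigs form a cluster and the other 32 are what a choice on PSME2 leaves. In these 32 pigs r was 0.33 with IRF1 and -0.08 with PTPRC. By sex over all groups, r with IRF1 was 0.86 in females and 0.57 in males, and r with PTPRC was 0.77 in females and -0.18 in males. The 4 pigs are in these values, 3 of them in females and 1 in males. When they were left out, r with IRF1 was 0.45 in 14 females and 0.05 in 18 males, and r with PTPRC was 0.38 and -0.51.

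**Figure D5:**
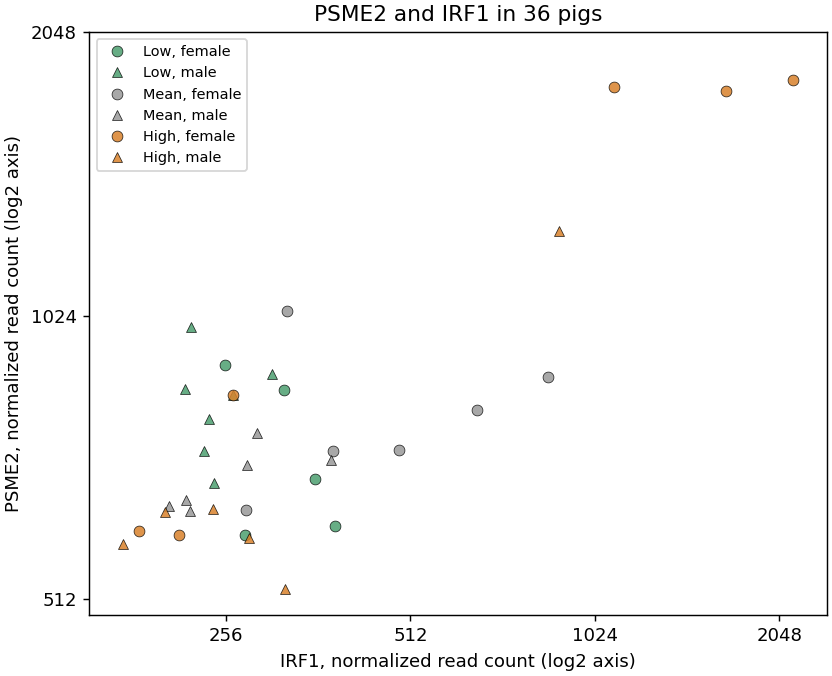
PSME2 (y axis) against IRF1 (x axis) in 36 pigs as normalized read counts, both on log2 axes; colours are the groups, circles females and triangles males. The 4 obese pigs lie at 895 to 2157 for IRF1 and 1258 to 1822 for PSME2, above the other 32 in both, but in IRF1 an intermediate pig comes close at 859.

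Of 24 measured partners of the proteasome, such as ubiquitin genes, shuttle factors, deubiquitinases and regulators, 0 were called in obese against lean pigs, against 0.0408% of all genes, 20 were above 0, against 47.5% of all genes, and the median was 0.06 against -0.01 over all genes. When the 4 obese pigs were left out, 13 were above 0, against 42.2%, with a median of 0.02. ZFAND5, a ubiquitin-binding activator of the 26S proteasome, had the smallest p. It was 69.1 to 338 in lean pigs with a median of 159, 8.13 to 182 in intermediate pigs with a median of 41.4, and 9.10 to 125 in obese pigs with a median of 47.1. Its level was thus highest in lean pigs, with overlap, and the difference of -1.89 ± 0.48 (SE, limma adjusted p = 0.0740) did not pass. It passed when the intermediate pigs were left out of the fit (-1.90, limma adjusted p = 0.0466). TXNL1 had 0.19 ± 0.079 (SE, limma adjusted p = 0.246). Against intermediate pigs the differences from lean were 0 called of 24, as 0% of all genes were, with ZFAND5 again the lowest at -1.96 ± 0.48 (SE, limma adjusted p = 0.172).

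NFE2L1, the transcription factor that induces proteasome genes when the proteasome is short, was lower in males and passed the test there. Its level was 931 to 2383 in males with a median of 1640 and 1189 to 3076 in females with a median of 2112. The sexes overlapped, but within the obese group all females (2088 to 3076) were above all males (1413 to 1946). The difference of males from females was -0.37 ± 0.093 (SE, limma adjusted p = 0.0264), and this was the 1 call among the 24 partners, while 2.19% of all genes were called. Without the 4 obese pigs it was -0.29 (limma adjusted p = 0.202). Obese against lean pigs NFE2L1 differed by 0.37 ± 0.11 (SE, limma adjusted p = 0.108), and by 0.25 without the 4 obese pigs.

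Of 14 measured genes of MHC class I peptide loading and its regulators, 13 were above 0 in obese against lean pigs, compared with 47.5% of all genes, with a median of 0.20, and 0 were called, against 0.0408%. Leaving out the 4 obese pigs, 7 of 14 were above 0, against 42.2% of all genes, with a median of 0.02. The smallest p belonged to STAT2 at 0.50 ± 0.18 (SE, limma adjusted p = 0.175), the kinase JAK2 at 0.40 ± 0.15 (SE, limma adjusted p = 0.198) and IRF2 at 0.24 ± 0.095 (SE, limma adjusted p = 0.209). STAT2 was 1295 to 3862 in the 4 obese pigs and 782 to 1135 in the other 8, and without the 4 its difference was 0.11, that of JAK2 0.30 and that of IRF2 0.12. In intermediate against lean pigs 7 of 14 were above 0, against 46.9% of all genes, and 0 were called, as 0% of all genes were. Between the sexes 1 of 14 was above 0 in males, against 47.7% of all genes, and 2 fell in males, while 2.19% of all genes were called, the peptide-trimming proteases ERAP1 by 0.54 on the log2 scale (SE 0.15, limma adjusted p = 0.0411) and ERAP2 by 0.74 (SE 0.20, limma adjusted p = 0.0457, but 0.0505 without the intensity trend). Without the 4 obese pigs these were -0.44 and -0.53, with limma adjusted p = 0.176 and 0.202.

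Leukocyte markers had higher medians in obese pigs. The summed level of PTPRC, CD53 and LAPTM5, which are 3 of the 4 listed leukocyte markers, was 861 to 4078 in lean pigs with a median of 1204, 1028 to 3765 in intermediate pigs with a median of 2387 and 1515 to 3925 in obese pigs with a median of 2996. The summed macrophage markers CD68, CSF1R, ITGAM and C1QA, 4 of 9 listed, were 1248 to 6112, 1783 to 6199 and 2691 to 8116, with medians of 1769, 3523 and 4504. The groups overlapped in both sums, and 0 of these 7 genes were called in obese against lean pigs, against 0.0408% of all genes, though all had an unadjusted p under 0.05, against 14.7%. The summed T and NK cell markers, 4 of 10 listed, had medians of 835, 929 and 858 and were highest in obese 1, 2 and 3. Over the 36 pigs, the mean scaled T and NK cell markers had r = 0.67 with PSME2 and 0.50 with the mean of the 18 subunits, and the fibroblast markers had -0.56 and -0.37. For leukocyte markers r was 0.30 and 0.05, and for macrophage markers 0.09 and -0.07. In the 32 pigs without the 4 that stood apart, T and NK cell markers had r = 0.11 with PSME2 and 0.03 with the mean of the 18 subunits, fibroblast markers -0.45 and -0.08, leukocyte markers -0.12 and -0.27, and macrophage markers -0.27 and -0.30. These are descriptions, and the part of these cells in the levels of proteasome genes was not tested.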

How the data were processed

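Poly-A RNA-Seq libraries of 36 pigs were analysed from 1 deposited table of log2 values. Per the labels and the methods of the study, the authors aligned reads to Sscrofa10.2 by STAR and counted per gene by HTSeq. The authors then removed lowly expressed genes, took size factors from DESeq and ran the voom transformation of limma, with a correction for sex according to the methods. Up to a constant, the deposited log2 values equal the log2 of reads plus 0.5 over the size factor plus 1. Within 0.1 reads, 99.85% or more of the values of a pig came out whole. Sex had thus not been taken out of the values, and it was kept in the model. This scale keeps part of the depth difference between pigs, with a range of 0.29 on the log2 scale, so a fit with the whole size factor divided out was added. The lowest count was 6 or 7 reads.

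Of 12253 gene IDs, 8320 had a symbol in the ID table. Contrasts were tested with limma 3.58.1 in R 4.3.3 (empirical Bayes, intensity trend, group and sex, all pigs, BH over all genes at 0.05). Correlations were computed in Python 3.11.15 (numpy 2.4.6, scipy 1.17.1). On simulated data with the means and spreads of the 12253 genes, 108 of 200 genes changed by 0.5 between obese and lean pigs were recovered with 2 false calls, and 177 of 200 changed by 1 with 5 false calls. Genes given in full were PSME2 and the 3 other members with the smallest unadjusted p in each of obese against lean, intermediate against lean and males against females. PSMC2, PSME4 and PSMC3IP were added after their values were seen. Members and lists were chosen with earlier results of these data known. Alternatives were fits without sex, without the trend, with the pigs of 2 groups, without the lowest 25% of genes, with the median of each pig subtracted, with voom weights on recovered reads, and with each pig left out. The whole size factor, the contrasts within a sex with their alternatives, and the fits without 4 obese pigs were chosen after seeing the data. Of the listed genes 1 is not reported here. Planned ratios of immune to constitutive catalytic subunits and a promoter motif search were not run.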

Additional observations from a re-analysis of the deposited data

How the results depend on the processing

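The count of called proteasome genes stayed at 0 in each comparison under every alternative and with each pig left out, so the lowest and highest count was 0 in all of them. For obese against lean pigs the lowest adjusted p was 0.235 with 1 pig left out and 0.269 over the other alternatives, apart from PSME2 without the 4 obese pigs, which has no test because they were chosen on PSME2. For the interaction it was 0.105 with 1 pig left out. The interaction had 2 to 11 genes with an unadjusted p under 0.05 with 1 pig left out, the fewest without obese 1 or obese 2, and 1 to 14 under the other settings, where 11.8% to 14.1% of all genes had one, the fewest without the 4 obese pigs. In females the count of such genes was 3 to 12 with 1 pig left out, the fewest without obese 2, and 0 to 15 under the other settings, where 15.0% to 17.0% of all genes had one, with 0 without the 4 obese pigs.

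Of the named log2 differences that were recomputed, PSME2 turned to -0.36 in obese against lean pigs and to -0.24 in females without the 4 obese pigs, and PSMC2 in males, at -0.06, ran from -0.142 without obese 8 to 0.0010 without obese 11. The others kept their direction. Obese against lean, PSMD11 ran from 0.11 to 0.19, PSMD12 from 0.10 to 0.16 and PSMA3 from 0.12 to 0.19 with 1 pig left out, each lowest without obese 2, and they were 0.03, 0.04 and 0.04 without the 4 obese pigs. PSME2 ran from 0.019 to 0.180 with 1 pig left out. ZFAND5 had an adjusted p of 0.0466 with only lean and obese pigs in the fit, and ERAP2 between the sexes 0.0505 without the intensity trend. The cause of these changes was not tested.

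The planned permutation tests of PSME2 with IRF1 and PTPRC are not given, since the 4 obese pigs form a cluster. As a description over all 36 pigs, r with IRF1 was 0.81 and rho 0.52. Its r was 0.66 without the 2 farthest pigs, 0.82 after group and sex were taken out, 0.33 without the 4 obese pigs and 0.22 also without the 2 farthest others. With PTPRC r was 0.49 and rho 0.18. Its r was 0.21 without the 2 farthest pigs, 0.45 after group and sex were taken out, 0.77 in females, -0.18 in males, -0.082 without the 4 obese pigs and -0.26 also without the 2 farthest others.

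TAP1 could not be used as a partner, and the ratios of immune to constitutive subunits could not be formed. No paired analysis was possible because the replicate numbers only name the pigs.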
